A study of Fukomys damarensis with 47 samples.

Results

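Genes for the extracellular matrix, for adhesion to it and for bone growth factor signaling were followed in RNA-Seq of cultured bone cells of the Damaraland mole-rat (Fukomys damarensis). The group holds 21 of the 11047 genes tested, chosen by name alone: every gene that reached 2 CPM (counts scaled to library size) in 25% or more of the 47 libraries and whose symbol begins with COL, LAMA, LAMB, LAMC, ITG, ADAM, MMP, TIMP, FBN, FBLN, THBS, LOX, SPARC, BMP, TGFB, FGF, WNT, IGF, CDH or PCDH, apart from COL1A1, ADAM8 and TGFBR3. Symbols were at hand for 1316 genes only, so other genes of these families were not analysed here.

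Cells enriched for bone marrow-derived mesenchymal stem cells (bMSCs) were cultured from 16 adult females of 8 natal colonies, aged 1003 to 1232 days. The 5 queens had been paired with an unrelated male, the 7 helpers had stayed in their natal colony and the 4 solitaires had been housed alone. The term nonbreeders covers both helpers and solitaires. Long bones, pooled without the right femur and tibia, gave 26 libraries, and lumbar vertebrae 1 to 5 (LV) gave 21. Cultures received estradiol (10 nM) or its vehicle for 24 hr, and all were grown in medium with basic FGF, a ligand of FGF receptors. LV were digested with collagenase and long bones were not, so bone type and digestion cannot be told apart. Days in culture are not in the sample labels.

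Bone matrix is laid down as collagen, which lysyl oxidases cross-link and metalloproteinases cleave, and cells hold on to it through integrins. The matrix also stores growth factors: TGF-beta is secreted in a latent form and bound there, and IGFs are held by IGF-binding proteins that release or block them. Signals through TGF-beta and FGF receptors guide the growth of mesenchymal progenitors and their choice between bone, cartilage and other fates.

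Library depth was between 5329563 and 16327339 counts, with a median of 8784879, and the tested genes held 99.14% to 99.82% of them. Cultures also held RNA of leukocytes: the summed level of 14 leukocyte markers in long bones was between 107 and 1125 CPM in nonbreeders and between 267 and 3062 CPM in queens. The queen of colony MA (MAF006) had the highest sum in long bones, 3062 CPM against a median of 397 CPM in the other 15 animals, and in LV, 1030 CPM against 159 CPM. No marker on the list was at 0 in every library, although CD27, which was not tested, was at 0 in 23. In long bones of MAF006 the sum of the osteoblast and stromal markers COL1A1, PHEX and ENG was the lowest of 16. It was at 46.3 CPM there, against a median of 383 CPM. In her LV that sum ranked 4 of 14 from the highest, at 504 CPM against 346 CPM, but its markers did not go together. ENG was at 0.09 log2 CPM there, the lowest of 14. COL1A1 was at 8.10, within the range of the other animals (7.13 to 9.77). In such bulk samples, fewer cells of a type and less RNA per cell cannot be told apart.

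The collagens in the group were COL5A2, of fibrillar type V collagen, COL8A2, of network-forming type VIII collagen, and COL18A1, a basement membrane collagen. Over the 47 libraries, the log2 CPM of COL5A2 was between 6.91 and 11.55 with a median of 9.58, that of COL8A2 between -0.50 and 5.24 with a median of 3.74, and that of COL18A1 between 2.27 and 7.12 with a median of 5.53. COL4A3BP, a ceramide transfer protein that carries a collagen's name only, was between 1.37 and 3.77. Levels are not divided by transcript length, so they are compared between samples and not between genes.

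LOXL1, which cross-links elastin, was between 3.96 and 8.79 log2 CPM, and THBS1, the adhesive glycoprotein thrombospondin 1, between 10.04 and 13.04. Among the adhesion receptors, ITGA11, a collagen-binding integrin chain, had the widest range of the 21 genes, 9.11 log2 units from 0.08 to 9.19, which is 6 to 5401 counts. CDH13, a cadherin anchored to the membrane by lipid, was between 5.27 and 8.70, and PCDH9, a protocadherin, between 4.01 and 8.58. The gelatinase MMP2 was between 3.20 and 7.80, and ADAM9, a membrane metalloproteinase, between 4.96 and 7.99. MMP11, the metalloproteinase stromelysin 3, had 2 to 100 counts and reached 2 CPM in 19 libraries only, so its values carry the largest counting error. ADAMTSL3 and ADAMTSL5 resemble ADAMTS proteases without their catalytic domain, and were between -1.38 and 4.65 and between -0.36 and 6.05.

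The ligand TGFB3 was between 1.52 and 7.89 log2 CPM and its receptor TGFBR1 between 2.20 and 6.39. FGFR1, an FGF receptor, was between 1.12 and 5.38. IGF2R, which binds IGF2 and mannose-6-phosphate and carries them to lysosomes, had the narrowest range of the group, 1.84 log2 units from 4.93 to 6.77. Of the IGF-binding proteins, IGFBP4 was between 3.01 and 6.97, IGFBP5 between 2.35 and 8.87, and IGFBP7, a related protein, between 3.55 and 5.93. The lowest library was one of MAF006 for all 21 genes except COL4A3BP, whose highest library was from MAF006.

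The median SD between animals was higher in the group than over all genes tested, and 1 animal carried much of that in long bones. Not every gene was above the median of all genes: IGF2R and ADAM9 were below it in both bone types. The median SD between animals of the 21 genes in long bones was 0.77 log2 units, against 0.49 over all genes tested, and 0.49 against 0.43 without MAF006. In LV the SDs were 0.66 and 0.48. In long bones MAF006 was the lowest of 16 animals for 18 of the 21 genes, as it was for 23.1% of all genes, with a median difference of -2.31 log2 units from the median of the other animals. In its LV it was the lowest of 14 animals for 13 of the 21, as it was for 21% of all genes. The median difference there was -1.42, and its only LV library was an estradiol culture. The share of other cells in these differences was not tested.

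**Figure D1:**
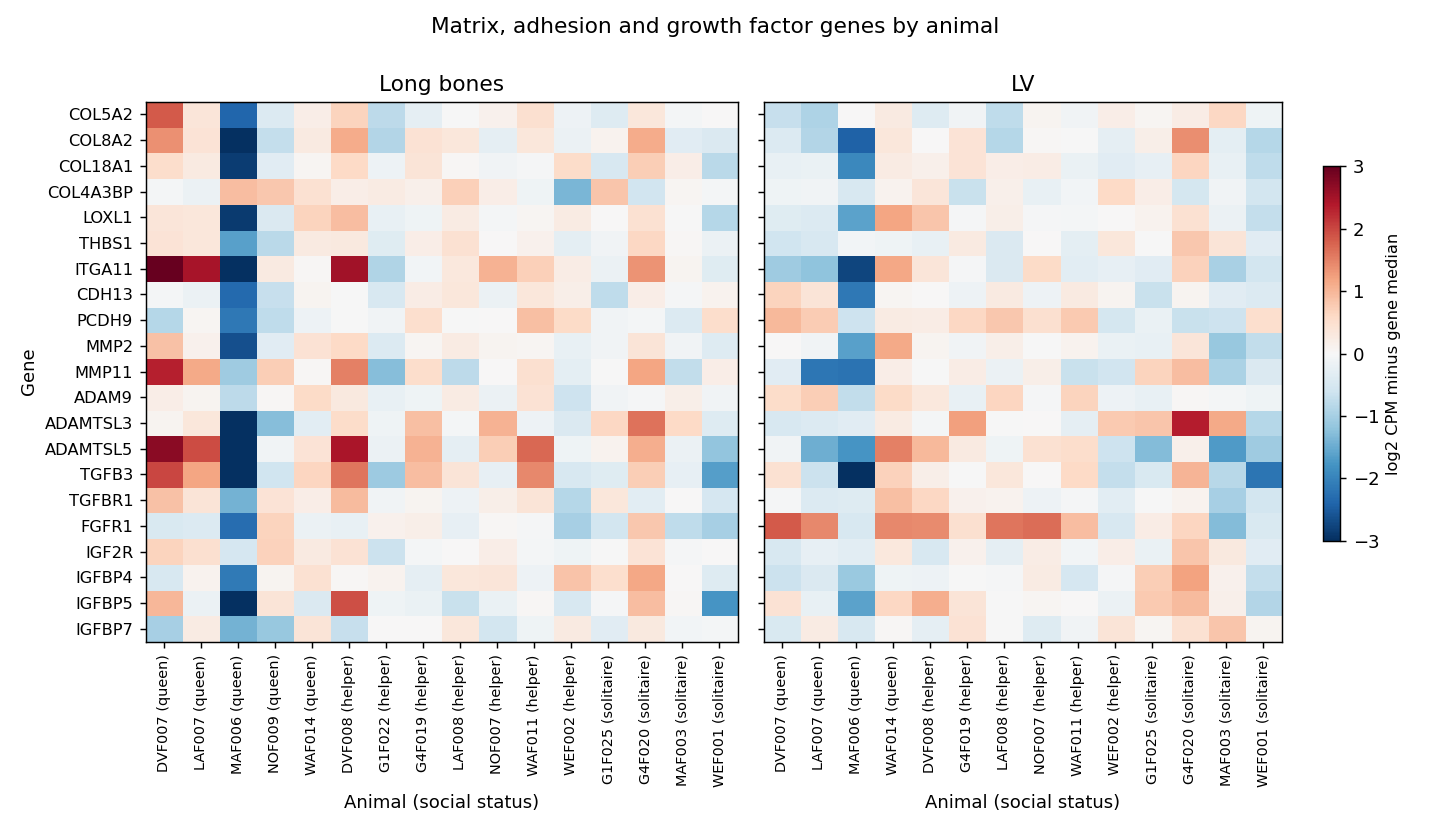
Level of each of the 21 genes (rows) in each animal (columns) in long bones and LV, as log2 CPM of the animal's summed libraries minus the gene's median over the 30 sums, with the colour saturating at 3. The long bone column of MAF006 is blue (low) for 20 of the 21 genes, and COL4A3BP is the exception.

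The first question was whether matrix and growth factor genes differed between LV and long bones of the same female. FGFR1 rose in LV, the only one of the 21 genes called at a false discovery rate (FDR) of 10%, against 6.83% of all genes. At an FDR of 20% the count was also 1 of 21, against 10.4%, and at an unadjusted p under 0.05 it was 4 of 21, against 16.3%. In the other direction, 16 of the 21 had a lower estimate in LV: 5 of 21 were above 0, against 44.0% of all genes, and their median log2 fold change was -0.20, against -0.04. All 3 collagens, LOXL1, THBS1, TGFB3 and TGFBR1 were among those with estimates below 0, and none of them passed the test.

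In vehicle cultures of the 13 females with both bone types, FGFR1 was at a lowest of 2.42, a median of 2.91 and a highest of 4.40 log2 CPM in long bones, and at 2.10, 4.05 and 5.07 in LV. It was higher in LV in 10 of the 13 females, although the ranges overlapped. The log2 fold change was 0.98 (SE 0.27, 95% confidence interval 0.40 to 1.56, edgeR adjusted p = 0.0521).

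The FGFR1 values are given by colony, in sets formed after they were seen and so with no test of the difference between the sets. In the 6 females of colonies DV, LA and WA, which were 1003 to 1006 days old, FGFR1 was at 2.53, 2.96 and 3.18 log2 CPM (lowest, median, highest) in long bones and at 3.81, 4.92 and 5.07 in LV. It was higher in LV in 6 of 6, with no overlap of the ranges. The share of all genes without overlap in these females is not given here. As the set was formed from these values, the separation is a description only. In the 7 females of the other colonies, aged 1075 to 1232 days, it was at 2.42, 2.90 and 4.40 in long bones and at 2.10, 3.63 and 4.68 in LV, and was higher in LV in 4 of 7. The fitted log2 fold change was 1.90 in the first set and 0.16 in the second. Colony and age cannot be told apart in these sets, and social status overlaps them: all 4 solitaires belong to the second set and all 3 queens in this comparison to the first, with LV minus long bone differences of 2.07, 2.33 and 2.07, while its 3 helpers had 0.79, 1.84 and 1.92. The study also set up its animals in an earlier and a later round with different follow-up times. The round of each female was not used here, so its part in the split was not tested. Among nonbreeders alone the log2 fold change was 0.59 (adjusted p = 0.363). Leaving out DVF007, LAF007, LAF008 or NOF007 also ended the call, with log2 fold changes of 0.88, 0.85, 0.89 and 0.95 and adjusted p-values of 0.109, 0.114, 0.129 and 0.1002.

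The genes next in order of p were COL8A2, TGFB3 and IGFBP4, which restrains IGF action. COL8A2 was at 3.39, 4.16 and 5.24 log2 CPM in long bones and at 1.82, 3.60 and 5.21 in LV, and was lower in LV in 7 of 13 females. TGFB3 was at 4.15, 6.18 and 7.86 against 2.92, 5.53 and 6.99, and IGFBP4 at 4.93, 5.68 and 6.97 against 3.77, 5.32 and 6.56, each lower in LV in 9 of 13. For all 3 genes the ranges in the 2 bone types overlapped over most of their length. Their log2 fold changes were -0.49 (SE 0.20, adjusted p = 0.215), -0.48 (SE 0.20, adjusted p = 0.227) and -0.37 (SE 0.16, adjusted p = 0.244). ITGA11 had a larger estimate, -0.82, with an SE of 0.39 (adjusted p = 0.317). It was lower in LV in 11 of 13 females, with differences of -4.64 in DVF007 and -3.33 in DVF008. The 2 exceptions were WAF014 (1.38) and WAF011 (1.26).

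**Figure D2:**
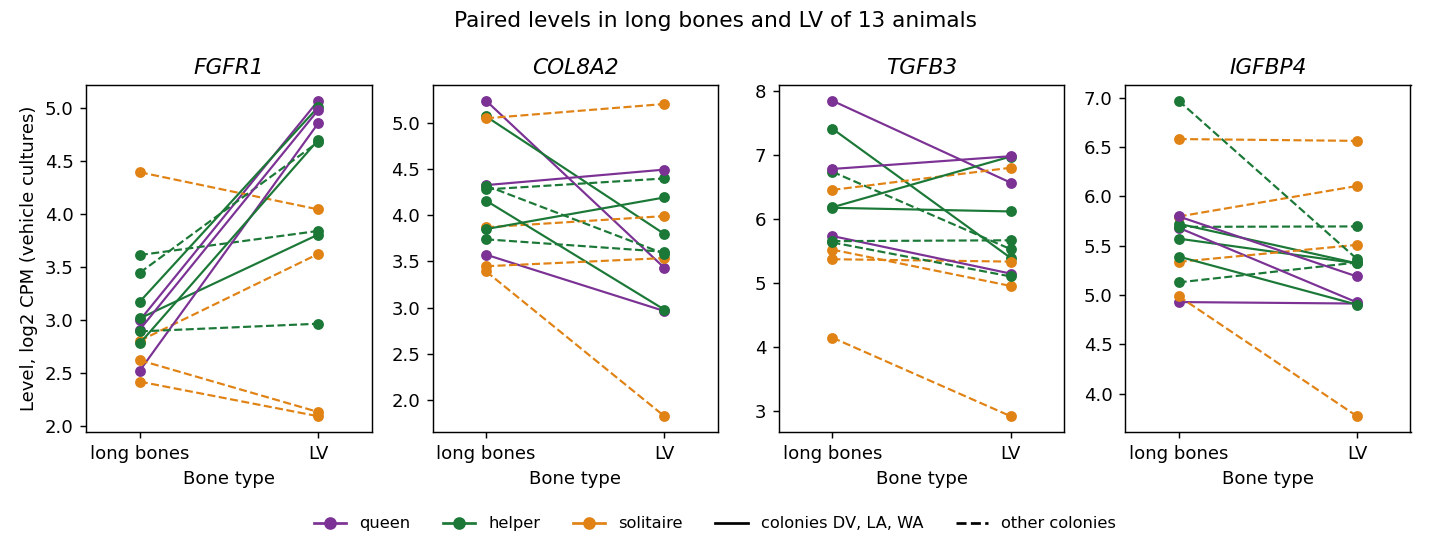
Log2 CPM in vehicle cultures of long bones and LV for FGFR1, COL8A2, TGFB3 and IGFBP4, with a line for each of 13 females (solid for colonies DV, LA and WA, dashed for the others). FGFR1 lines rise in 6 of the 6 solid and 4 of the 7 dashed cases, and the lines of the other 3 genes go both ways.

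Of 53 other tested genes on 7 lists of matrix and growth signal pathways, 2 rose in LV and 4 fell, against 6.83% of all genes called in either direction. These lists were drawn up with earlier results of the same data known, so the counts are a description. Among 11 other matrix proteins, SPOCK3, a proteoglycan of the SPARC family, rose by 2.04 (SE 0.29, adjusted p = 0.000312) and ANOS1, the secreted adhesion protein anosmin 1, fell by 1.26 on the log2 scale (SE 0.19, adjusted p = 0.000677). Among 9 TGF-beta and BMP genes the activin receptor ACVR2A fell by 0.66 (SE 0.14, adjusted p = 0.0101). Of 5 Wnt genes the co-repressor TLE4 rose by 0.64 (SE 0.15, adjusted p = 0.0186) and the transcription factor TCF7L1 fell by 0.56 (SE 0.16, adjusted p = 0.0580). Among 4 other growth signal genes SOCS2, a feedback inhibitor of growth hormone signaling, fell by 0.92 (SE 0.17, adjusted p = 0.00313). Matrix processing (6 genes), cell-matrix adhesion (8 genes) and glycosaminoglycan synthesis (10 genes) had no gene past an FDR of 10%. Of the cell type markers, 5 of 14 for leukocytes (SLAMF7, LCP2, LAPTM5, CORO1A and GRAP2) fell in LV, with a median log2 fold change of -0.60 over the 14. Of the osteoblast and stromal markers, PHEX rose by 0.62 (adjusted p = 0.0468), while ENG (1.12, adjusted p = 0.160) and COL1A1 (-0.51, adjusted p = 0.299) did not pass. The adipocyte regulator PPARG fell by 1.02 (adjusted p = 0.000323). The part of other cell types in the values of FGFR1 and the matrix genes was not tested.

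The second question was whether queens differed from nonbreeders. In long bones no gene of the 21 was called at an FDR of 10% by edgeR, against 0% of all genes, and 2 of 21 were under an unadjusted p of 0.05, against 8.69%. DESeq2 called 1 (PCDH9), against 3.54% of all genes, and limma voom called 2 (PCDH9 and CDH13), against 6.59%. At an FDR of 20%, the second level the study used, PCDH9 was the only one of the 21, against 1.48% of all genes. Estimates leaned down: 3 of the 21 genes (MMP11, IGF2R and COL4A3BP) were above 0, against 52.3% of all genes, and the median log2 fold change was -0.46, against 0.02.

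That lean rested on 1 colony. Against nonbreeding females of their own colony, the queen was higher for 9 of the 21 genes in DV, 13 in LA, 7 in NO and 9 in WA, but for 1 in MA. The median difference was -0.06, 0.09, -0.38 and -0.13 log2 units in the first 4 and -2.29 in MA, where the queen is MAF006 and her only colony mate is the solitaire MAF003. Without MAF006, 12 of the 21 estimates were above 0 and their median was 0.01. Leaving out MAF003, which leaves MAF006 without a comparison in the colony block, also gave 12. Without the block 10 were above 0, with a median of -0.04.

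PCDH9, which mediates adhesion between cells, was at 5.31 log2 CPM in the queen MAF006, 6.61 in DVF007, 6.69 in NOF009, 7.30 in WAF014 and 7.53 in LAF007. Among the 11 nonbreeders it was at a lowest of 7.05, a median of 7.46 and a highest of 8.37, so 3 of the 5 queens were below all nonbreeders and the other 2 were within their range. The queen was lower than her colony mates in 4 of 5 colonies, by 0.85 in DV, 1.74 in MA, 0.77 in NO and 1.06 in WA, and the difference in LA was 0.07. The log2 fold change was -0.88 (SE 0.22, 95% confidence interval -1.37 to -0.38, edgeR adjusted p = 0.190), and -0.66 (adjusted p = 0.495) without MAF006.

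CDH13 was at 5.69 in MAF006, 7.32 in NOF009, 7.85 in LAF007, 7.95 in DVF007 and 8.09 in WAF014, and at 7.25, 8.13 and 8.34 (lowest, median, highest) in nonbreeders. The queen was lower in 5 of 5 colonies, but only MAF006 was below the nonbreeders' range. The log2 fold change was -0.70 (SE 0.27, adjusted p = 0.468), and -0.33 (adjusted p = 0.643) without MAF006. ADAMTSL3 was at -1.15 in MAF006, 1.02 in NOF009, 1.98 in WAF014, 2.36 in DVF007 and 2.62 in LAF007, and at 1.85, 2.85 and 3.93 in nonbreeders. The queens MAF006 and NOF009 were below all nonbreeders, and the other 3 were within their range. The log2 fold change was -1.19 (SE 0.58, adjusted p = 0.612), and -0.63 (adjusted p = 0.998) without MAF006. Leukocyte markers were higher in queens for 13 of 14 in the same fit, with a median of 1.52 and none past an FDR of 10% (smallest adjusted p = 0.114, for GPR65), and their part in the values of PCDH9, CDH13 and ADAMTSL3 was not tested.

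**Figure D3:**
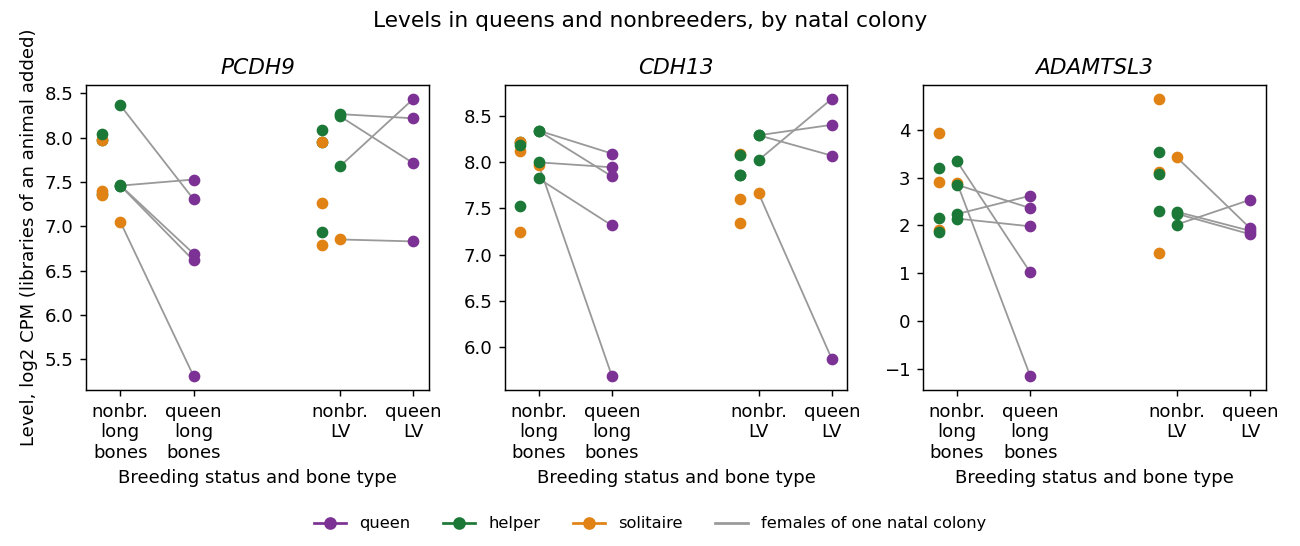
Log2 CPM of PCDH9, CDH13 and ADAMTSL3 in queens and nonbreeders (nonbr.), in long bones and LV, as 1 point for each animal, with grey lines between females of one natal colony. In long bones 3 of 5 queens lie below all nonbreeders for PCDH9, and the lowest point of each panel in long bones is MAF006.

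Of the pathway lists, 0 of 53 genes passed an FDR of 10% between queens and nonbreeders in long bones (edgeR, 5 at an unadjusted p under 0.05, against 8.69% of all genes), and 15 of 53 estimates were above 0, against 52.3%. The smallest adjusted p was that of PARVG (1.61, SE 0.40, adjusted p = 0.182), an integrin-linked adaptor that is most abundant in blood cells. It was at 6.05 log2 CPM in MAF006 and 4.30 in NOF009. In DVF007, LAF007 and WAF014 it was near the floor, at -2.03, -1.55 and -1.09. Nonbreeders were between -2.20 and 3.44, and over both bone types 5 libraries had 0 counts of it. In the other 6 comparisons below, 0 of the 53 passed by edgeR, with 1 to 6 at an unadjusted p under 0.05.

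In LV, 0 of the 21 genes were called between 4 queens and 10 nonbreeders, against 0% of all genes, and 0 of 21 were under an unadjusted p of 0.05, against 3.42%. DESeq2 and limma voom also called 0 of the 21, against 0.950% and 1.43% of all genes. Again 4 of 21 estimates were above 0, against 51.8%, with a median of -0.28, against 0.01. The queen was higher for 6 of the 21 in DV, 4 in LA and 2 in MA but for 18 in WA. Without MAF006, 7 of 21 were above 0. From vehicle libraries alone, 16 of 21 were above 0 and the median was 0.08. That fit holds 3 queens and leaves out MAF006, whose only LV library was an estradiol culture. The genes with the smallest p were FGFR1, COL18A1 and IGFBP5, which is the most abundant IGF-binding protein of bone. FGFR1 was at 2.91 in MAF006, 4.84 in WAF014, 4.85 in LAF007 and 5.24 in DVF007, against 2.10, 3.96 and 5.08 in nonbreeders. COL18A1 was at 3.71 in MAF006 and between 5.43 and 5.88 in the other queens, against 4.87, 5.62 and 6.28. IGFBP5 was at 5.27 in MAF006 and between 6.63 and 7.49 in the other queens, against 5.99, 6.97 and 7.94. MAF006 was the lowest queen for each of the 3, and apart from her and the FGFR1 value of DVF007 the queens lay within the nonbreeders' range. The log2 fold changes were 0.37 (SE 0.19), -0.47 (SE 0.30) and -0.49 (SE 0.35), all with an adjusted p of 0.999.

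Whether the queen effect differed between bone types was tested itself, as an interaction in the 14 animals with both. By edgeR 0 of the 21 genes passed an FDR of 10%, against 0% of all genes, and 4 of 21 had an unadjusted p under 0.05, against 4.88%. DESeq2 called 0, against 0.0272% of all genes. Estimates above 0 were 9 of 21, against 53.8%. The estimated difference in queen effect, long bones minus LV, was -1.15 for PCDH9 (SE 0.31), -0.50 for CDH13 (SE 0.16), -1.12 for FGFR1 (SE 0.39) and 1.49 for MMP11 (SE 0.64), each with an adjusted p of 0.794. In LV, PCDH9 was at 6.83, 7.71, 8.22 and 8.44 in the 4 queens and at 6.79, 7.82 and 8.27 in nonbreeders, so the groups overlapped there. MMP11 was between -0.01 and 3.40 in the queens' long bones and between -1.16 and 1.26 in their LV, at the low counts given above. Without the queen WAF014, 3 of the 21 genes were called by edgeR, against 1092 of all 11047. They were PCDH9 (-1.39, adjusted p = 0.0334), CDH13 (-0.63, adjusted p = 0.0410) and MMP11 (2.50, adjusted p = 0.0273).

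The third question was whether solitaires differed from helpers, which compares social settings among females that do not breed. In long bones 0 of the 21 genes passed an FDR of 10% by edgeR, against 0.00905% of all genes, and 2 of 21 were under an unadjusted p of 0.05, against 8.75%. DESeq2 called 0, against 1.28% of the genes it gave an adjusted p. All 21 estimates were above 0 in solitaires, against 50.0% of all genes, with a median of 0.49, against 0.00.

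This one-sided direction did not hold in other fits, nor in each colony. Where a helper and a solitaire came from the same colony, the solitaire was higher for 16 of the 21 genes in G1, 16 in G4 and 8 in the colony of WEF001 and WEF002. In a fit of nonbreeders alone 12 of 21 were above 0 with a median of 0.13, without MAF006 there were also 12, and without the colony block there were 8 with a median of -0.09. With the block, the solitaire MAF003 is set against the queen MAF006, the only other female of colony MA, so this pair ties the solitaire estimate to the queen estimate.

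The smallest p-values belonged to IGF2R, ADAM9 and MMP11. IGF2R was at 5.71 in MAF003, 5.74 in G1F025, 5.75 in WEF001 and 6.15 in G4F020, and at 5.10, 5.68 and 6.18 in the 7 helpers. ADAM9 was between 7.08 and 7.36 in the 4 solitaires and at 6.56, 7.05 and 7.62 in helpers. MMP11 was between 0.33 and 2.23 in solitaires and at -0.22, 1.08 and 2.57 in helpers. For each gene every solitaire lay within the helpers' range. The log2 fold changes were 0.49 (SE 0.15, adjusted p = 0.522), 0.38 (SE 0.16, adjusted p = 0.559) and 0.87 (SE 0.42, adjusted p = 0.559).

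In LV, 0 of the 21 genes passed the test between 4 solitaires and 6 helpers by edgeR or DESeq2, against 0% and 0.0543% of all genes, and 0 of 21 were under an unadjusted p of 0.05, against 2.79%. Estimates above 0 were 16 of 21, against 50.3%, with a median of 0.26. From vehicle libraries alone, with none of MAF006, only 3 of 21 were above 0, with a median of -0.29. Among nonbreeders alone 8 of 21 were above 0. The solitaire was higher for 18 of the 21 in colony G4 and for 4 in that of WEF001 and WEF002. COL8A2 was at 2.96, 3.52, 3.98 and 5.20 in solitaires and at 2.96, 3.81 and 4.21 in helpers (log2 fold change 0.70, SE 0.47). IGFBP4 was at 4.66, 5.50, 6.10 and 6.56 in solitaires and at 4.86, 5.33 and 5.62 in helpers (0.50, SE 0.39). ADAM9 was at 6.97, 7.04, 7.12 and 7.22 in solitaires and at 6.96, 7.32 and 7.84 in helpers (0.30, SE 0.17). Groups overlapped for all 3, and each adjusted p was 0.998. In no status comparison, in either bone type, were the groups fully separated for any of the 21 genes. Over all genes the separated share was 0.0634% for queens against nonbreeders in long bones and 0.172% in LV, and 0.489% and 1.23% for solitaires against helpers, so a count of 0 of 21 is near the background.

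**Figure D4:**
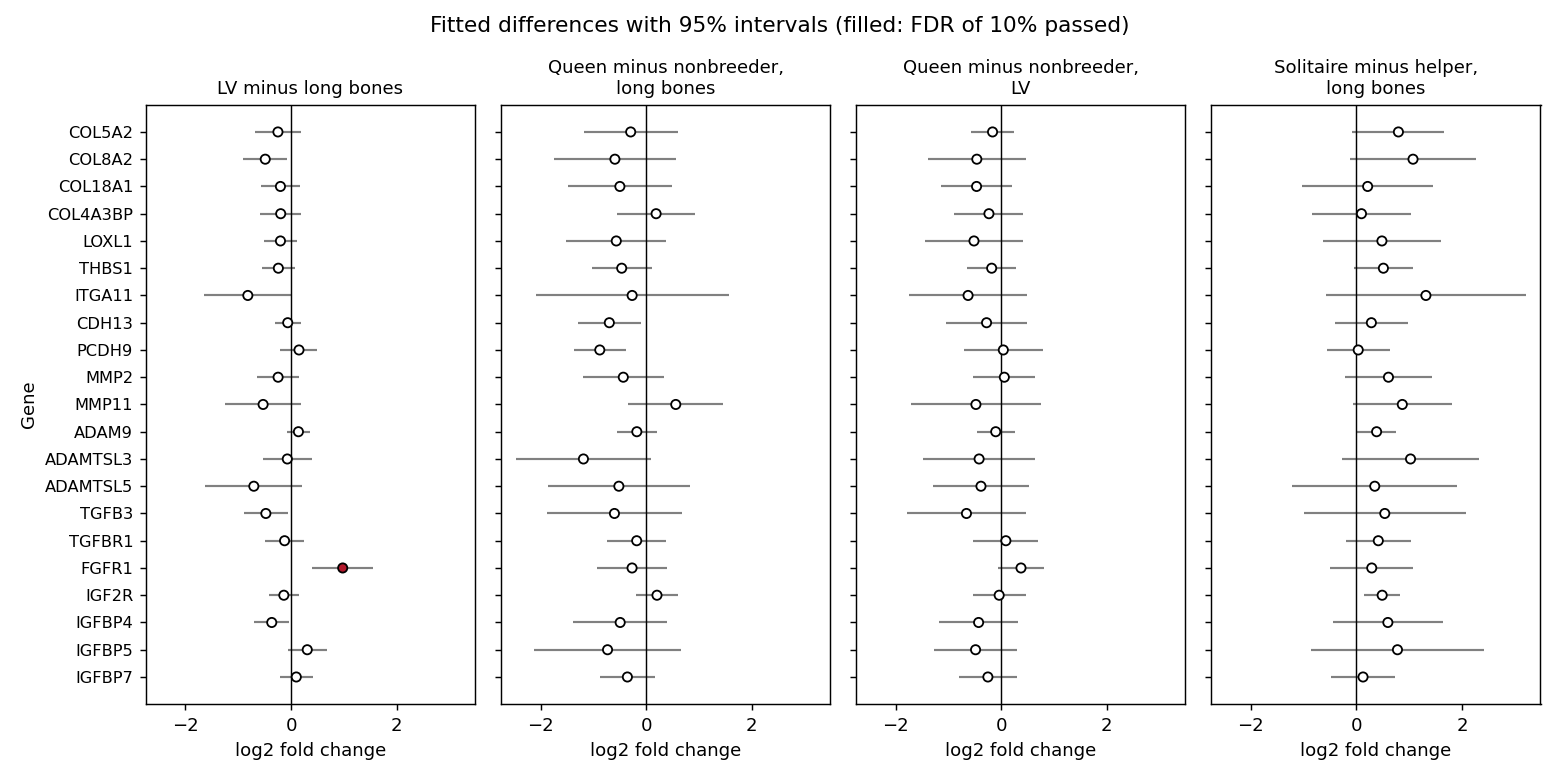
Log2 fold change of each of the 21 genes with its 95% confidence interval (edgeR) for LV against long bones, queens against nonbreeders in each bone type and solitaires against helpers in long bones, filled where the FDR is under 10%. FGFR1 in the bone type panel (0.98, interval 0.40 to 1.56) is the only filled point, and all 21 points of the solitaire panel lie above 0, against 8 without the colony block and 12 among nonbreeders alone.

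The fourth question was the response to estradiol, within animals that had both treatments. In long bones of 10 females 0 of the 21 genes passed an FDR of 10% by edgeR, DESeq2 or limma voom, against 0%, 0.0453% and 0.0272% of all genes, and 0 were under an unadjusted p of 0.05, against 1.17%. Estimates above 0 were 8 of 21, against 51.1%, with a median of -0.02. FGFR1 had estradiol minus vehicle differences of -0.85, 0.51 and 1.08 log2 units (lowest, median, highest) and was higher in 6 of 10 females. MMP11 had -1.70, 0.27 and 2.65 and was higher in 7 of 10, and IGFBP7 had -0.95, -0.20 and 0.59 and was higher in 3 of 10. Each of these genes thus moved both ways. The log2 fold changes were 0.32 (SE 0.20), 0.52 (SE 0.38) and -0.22 (SE 0.17), all with an adjusted p of 1.00.

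In LV of 7 females 0 of the 21 passed by edgeR, DESeq2 or limma voom, against 0%, 0.0543% and 0.0272% of all genes, and 0 were under an unadjusted p of 0.05, against 0.498%. Estimates above 0 were 7 of 21, against 49.1%. PCDH9 had differences of -0.15, 0.20 and 1.39, FGFR1 of -0.64, 0.31 and 1.53 and COL5A2 of -0.88, -0.06 and 0.11. They were higher with estradiol in 5, 5 and 2 of the 7 females. The log2 fold changes were 0.31 (SE 0.18), 0.39 (SE 0.27) and -0.17 (SE 0.13), with adjusted p-values of 1.00.

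Beneath these averages single females had wide differences between their 2 cultures, in opposite directions. In long bones of LAF007, 13 of the 21 genes were over 1 log2 unit apart, all higher with estradiol, against 30.1% of all genes. ADAMTSL5 differed by 4.49 and ITGA11 by 3.77 in that female, and by 3.51 and 2.34 in WAF011. In WEF002, 9 of the 21 were over 1 log2 unit apart, against 44.5% of all genes, with COL18A1 at -2.42 and ITGA11 at -2.20. In LV, WEF001 had 18 of the 21 higher with estradiol and WAF014 had 4, with ITGA11 at -2.62 and ADAMTSL5 at -3.12. With 1 library for each treatment, bone type and female, the difference between treatments and that between culture wells cannot be told apart within a female.

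**Figure D5:**
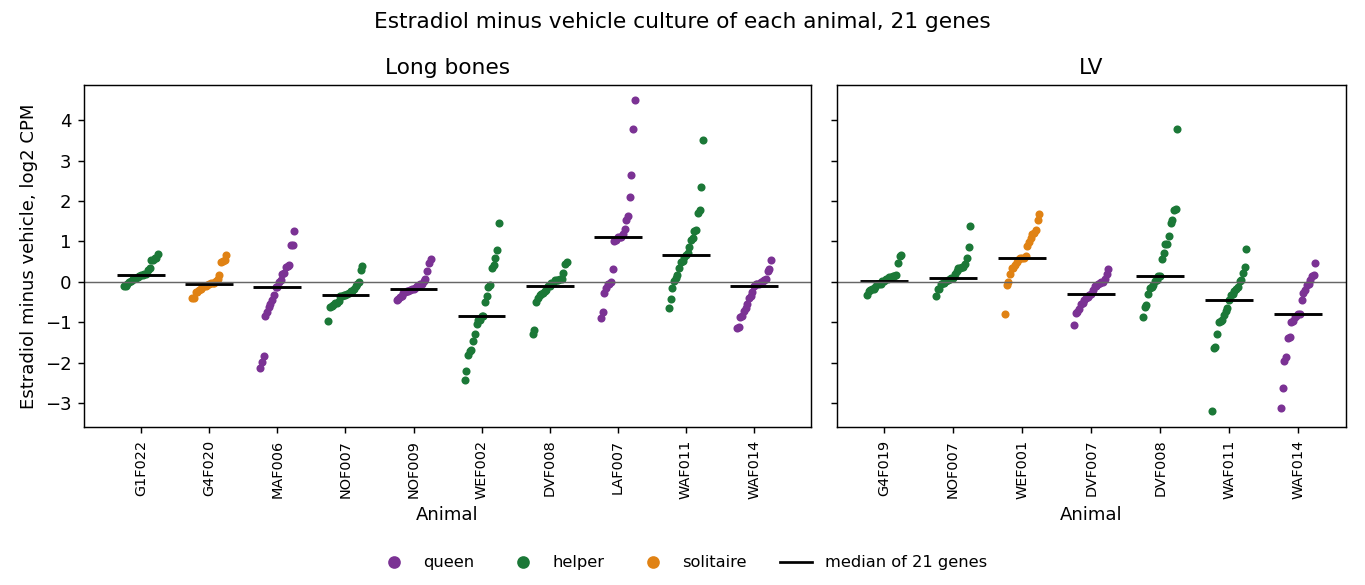
Estradiol minus vehicle difference (log2 CPM) of the 21 genes in each female, in long bones (10 females) and LV (7 females), with 1 point for each gene. Most genes of LAF007 lie above 0 in long bones and most of WEF002 below 0, and no direction is shared by all females.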

How the data were processed

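RNA-Seq libraries were grouped by the sample labels. The deposited table holds counts per gene: per the submitters' notes and the study's methods, the authors trimmed reads with cutadapt 2.3, aligned them with STAR to the assembly DMR_v1.0 and counted unique reads on Ensembl genes with HTSeq (strand setting not given in the sources used here). Antisense, overlapping or near-identical genes are therefore uncertain. Natal colony was inferred from the animal name.

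Of 33562 genes, 11047 had at least 2 CPM in at least 25% of libraries (12) and were tested with edgeR 4.0.16 (TMM, quasi-likelihood, R 4.3.3), two-sided, with Benjamini-Hochberg adjustment over all of them. Bone type, the queen interaction and estradiol used animal as a block. Breeding and social status used an animal's libraries added, with natal colony as a block. Levels were computed as log2 CPM (prior count 2). Scripts were tested on simulated data. Alternatives used DESeq2 1.42.0, limma 3.58.1 voom, other filters, scalings, blocks and subsets, and each animal left out in turn.

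All 21 genes are named. Full statistics are given for those past an FDR of 10% and for the 3 with the smallest p in each comparison, and list genes are named where they passed or had the smallest p of all lists in the queen comparison in long bones. The genes and lists were chosen with earlier results of these data known.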

Additional observations from a re-analysis of the deposited data

Results flagged for a closer look

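There were 6 values that stood apart from the rest of their group by Dixon's test at the 95% level, of 84 groups of 4 to 10 animals tested, where chance gives about 1 in 20. The queen MAF006 gave 3 of them: in long bones IGFBP5 was at 2.56 log2 CPM with the next queen at 6.42 and COL18A1 at 2.80 with the next at 5.31, and in LV ADAM9 was at 6.44 with the next at 7.74. Among helpers in long bones, FGFR1 was at 2.41 in WEF002 with the next at 3.15, and IGFBP5 was at 8.79 in DVF008, the highest, with the next at 6.90. Among solitaires in long bones, IGF2R was at 6.15 in G4F020, the highest, with the next at 5.75. The tested groups were not every combination of gene, social status and bone type, so the list is not complete. For example, LOXL1 in LV of helpers was at 7.80 in DVF008 with the next at 7.16, and is not among the 6.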

How the results depend on the processing

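The number of the 21 genes called at an FDR of 10% changed in 3 comparisons. For bone type (1) it was 3 with the libraries of both treatments added, against 2179 of all 11047 genes. In nonbreeders alone it was 0, against 394 of 11047. It was 2 in the other colonies alone, a set chosen after seeing the data (ADAMTSL5 and ITGA11, both lower in LV). The share of all genes called in that set is not given here, so these 2 calls are not read as particular to the group. With 1 animal left out it was 0 to 2, and the 2 came without WAF011, against 1391 of 11047. For queens in long bones (0) it was 1 by DESeq2, against 3.54% of all genes, and 2 by limma voom, against 6.59%. Without a filter it was 6, against 1015 among all genes with a count, a larger set than the 11047. For the queen effect between bone types (0) it was 0 to 3 with 1 animal left out, and the 3 came without WAF014, against 1092 of 11047. Over all genes tested, the bone type count of 755 was between 251 (no animal block) and 2179 (treatments added), and between 563 and 1391 with 1 animal left out. The count for queens in long bones was 0, against 1015 without a filter, 391 by DESeq2 and 728 by limma voom. It was 76 from vehicle alone and 271 without DVF007 or DVF008. Fits without a filter took in every gene with a count, so their counts are not out of 11047. For queens in LV it was 0, against 378 without a filter, 105 by DESeq2 and 158 by limma voom. For the queen effect between bone types it was 0, against 1092 without WAF014. For solitaires in long bones it was 1, against 139 by DESeq2, and in LV 0, against at most 9. For estradiol it was 0, against at most 7 in long bones and 6 in LV. Of 24 named effects, 18 kept their direction in every alternative, and 7 of 486 alternatives had the opposite sign. For queens in LV from vehicle alone, a fit without MAF006, these were IGFBP5 (0.10) and COL18A1 (0.072). Both stayed below 0 with any 1 animal left out, MAF006 included (at most -0.088 and -0.10). For solitaires without a colony block the opposite signs were those of ADAM9 in long bones (-0.046) and in LV (-0.34). For solitaires in LV from vehicle alone they were those of IGFBP4 (-0.15), COL8A2 (-0.39) and ADAM9 (-0.053). The cause was not tested. No paired analysis was possible by replicate number, because these numbers only name samples in accession order. Tests were paired by animal or blocked by natal colony instead. With 4 to 6 residual degrees of freedom for solitaires and 5 to 7 for queens, small differences were not detectable.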
